A study of Saccharomyces cerevisiae with 41 samples.

Results

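The cytosolic ribosomal protein genes of budding yeast were followed through a UV time course in wild type and 5 deletion strains. The genes were those whose symbol is RPL or RPS followed by a number and, for duplicated genes, the letter A or B. By this rule 122 genes were measured, of 5449 budding yeast genes matched on the array, 70 of the large subunit (RPL) and 52 of the small subunit (RPS). The gene table holds 132 such symbols, and the other 10 were not analysed here. Where a gene had 2 probe sets, the one with the higher mean over all arrays was used, which concerned 20 genes.

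Total RNA of 41 samples was measured on Affymetrix Yeast 2.0 arrays, with a separate array for each. All strains shared the YPH499 background, a haploid MATa laboratory strain. They were mig3, snf1, rad23 and rad4 deletion strains, a snf1rad23 double deletion strain, and wild type (WT). Log-phase cultures in YPD (rich medium with glucose) at 30 °C and an OD600 of 1.0 were put briefly in water and given 100 J/m2 of UV-C or a mock treatment, and irradiated cells then recovered in fresh YPD. Samples of mig3, snf1 and WT were unirradiated or had recovered for 15, 30 or 60 min, and the rad23, snf1rad23 and rad4 series left out the 15 min time. The groups held 2 arrays each, described as biological replicates with nothing further said of their cultures, so a p-value gauges the spread of these samples alone. From mig3 at 15 min a single array was used here, and its spread is taken to be that of the other groups. There were no mock-treated arrays at later times, so UV and the passage through water into fresh medium cannot be told apart in any UV response. Snf1 is the yeast AMP-activated kinase, Mig3 a repressor of the Mig family, and Rad4 and Rad23 together recognise damage in nucleotide excision repair.

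Ribosomal proteins assemble with ribosomal RNA into the small subunit, which decodes the message, and the large subunit, which joins amino acids. Their genes are among the most strongly transcribed in growing yeast, are driven by Rap1, Fhl1, Ifh1 and Sfp1 under control of the TORC1 and protein kinase A pathways, and are turned down together in many stresses. Most exist as duplicated A and B genes that encode the same or nearly the same protein, and several feed back on the expression of their own copies. Rps28 promotes decay of the RPS28B message through Edc3, and Rpl22 and Rps14 hinder splicing of the transcripts of RPL22B and RPS14B.

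The members lay close to the top of the array's scale. Values are log2 GCRMA signal, and over all probe sets and arrays they ran from 1.62 to 15.96. The median of the 122 members was 14.43 to 15.02 per array, against 10.63 to 10.77 for all tested probe sets, and 65 to 110 members exceeded the 95th percentile of all tested probe sets on their array. All 122 passed the filter on dim probe sets. Changes are differences of log2 group means ± SE from 1 limma fit to all 41 arrays, and a gene was called at a Benjamini-Hochberg adjusted p under 0.05 over all 5380 tested probe sets. In such pooled RNA the arrays report signal relative to all other transcripts, so fewer cells with a transcript, less of it in each cell and a change in the total cannot be told apart.

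The deleted genes matched the strain labels of the arrays. Each deleted gene was near background where it was deleted, at 1.91 to 2.74 for SNF1, MIG3, RAD23 and RAD4, against 7.59 to 13.49 on the other arrays. The a-factor gene MFA1, a marker of MATa cells, was at 12.90 to 14.58 on all arrays, while the alpha-factor gene MF(ALPHA)1 was at 2.07 to 4.82. Other mating type markers varied between strains without UV. Of 5 MATa genes, 4 were called lower than in WT in snf1 and 3 in rad23. Of 4 tested alpha or diploid genes, 2 and 4 were called higher. Beside them, 23.6% of all tested probe sets were called lower in snf1 and 25.4% in rad23, and 45.3% and 47.6% were called in either direction. In snf1rad23, 1 MATa gene was called higher, 1 lower and 1 alpha or diploid gene higher. In mig3 and rad4, 0 MATa genes were called and 1 alpha or diploid gene was called higher. WT replicate 1 at 60 min lay nearer the WT arrays of 30 min (SD of the difference over all tested probe sets, 0.65 and 0.67) than WT replicate 2 at 60 min (0.75). In mig3, replicate 2 at 30 min lay nearest to replicate 1 at 60 min (0.38) and replicate 1 at 30 min nearest to replicate 2 at 60 min (0.32), while both same-time pairs were 0.56 apart. Results of these groups are therefore also given without one WT array or with the 2 mig3 times averaged, an alternative added after the data were seen. As a measure of RNA quality, the 3′ probe set of SPT15 minus its 5′ probe set, which grows as RNA degrades, was 1.95 to 2.18 in group means of rad23 and snf1rad23, against 1.23 to 1.63 in all other groups. The same difference did not set these strains apart for the other 2 control genes, at 0.09 to 0.22 for ACT1 and 3.26 to 4.26 for SRB4 in group means of rad23 and snf1rad23, against 0.11 to 0.25 and 2.91 to 4.34 in the other groups.

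Members with a lower mean signal varied more between groups. Over the 21 groups, the SD of the group means had a median of 0.44 in the 12 members with a mean signal under 14, 0.17 in the 68 members from 14 to 15 and 0.08 in the 42 members at 15 and above. Across genes, which are not independent replicates, Spearman's rho of mean signal and this SD was -0.79 (n = 122). Signal of different probe sets is not a measure of relative transcript amount, and whether the top of the scale compressed changes of the brightest members was not tested. The 6 members that varied most were RPL41A (SD 0.91), RPL22B (0.71), RPS9A (0.57), RPL27B (0.55), RPS7B (0.55) and RPS28B (0.51). Among those that varied least were RPS13 (0.039), RPL14B (0.045) and RPS15 (0.049). Mean signal ran from 10.33 for RPL41A, whose probe set carries a suffix for shared probes, to 15.42 for RPS4B.

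**Figure D1:**
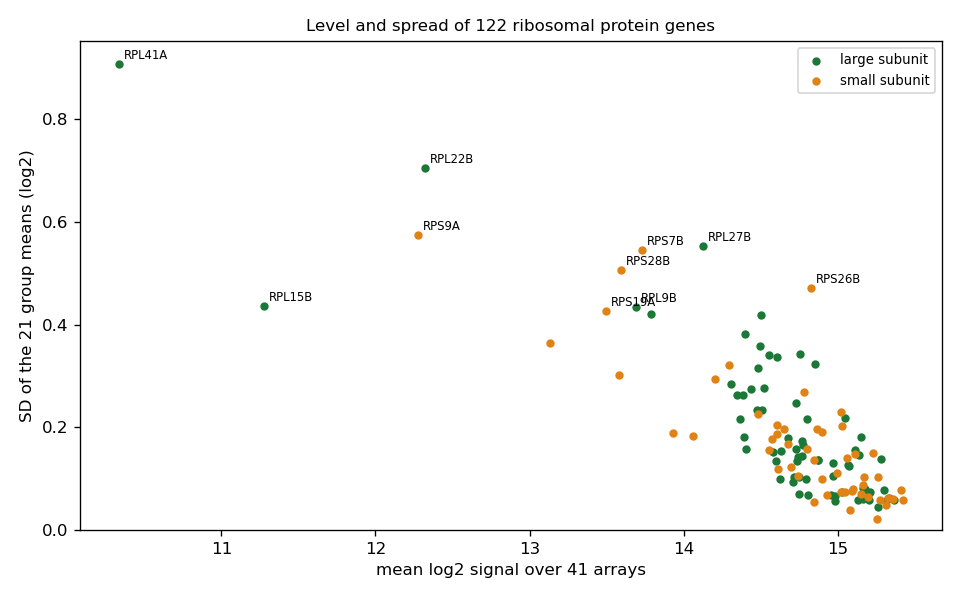
Each point is 1 of 122 ribosomal protein genes, with its mean log2 signal over 41 arrays on the x axis and the SD of its 21 group means (log2) on the y axis, coloured by subunit. The spread is widest in the few genes with low signal, RPL41A at 10.33 with an SD of 0.91, and narrow at 15 and above, where the median SD is 0.08.

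After UV few members were called at 15 min, and more were called lower by 60 min. At 15 min no member was called in mig3 or snf1, where 0.743% and 9.87% of all tested probe sets were called, and 1 was called in WT (5.91% of all). At an unadjusted p under 0.05 the limma fit held 0 members in mig3 and 1 in snf1. At 30 min the members called higher and lower numbered 1 and 3 in mig3 (23.6% of all tested probe sets called), 1 and 6 in snf1 (31.1%), 3 and 4 in rad23 (28.5%), 6 and 15 in snf1rad23 (35.5%), 1 and 2 in rad4 (32.5%) and 1 and 4 in WT (25.1%). In each strain the called share of members at 30 min was below that of all tested probe sets. Falls were called for 9.44% of all tested probe sets in mig3, 15.3% in snf1, 13.1% in rad23, 16.1% in snf1rad23, 18% in rad4 and 12.6% in WT. These counts leaned on single arrays: snf1rad23 held 8 called members without replicate 2 at 30 min and 12 without either unirradiated array, and snf1 held 3 or 4 without any 1 of its 4 arrays. The count was 2 in rad23 without unirradiated replicate 2 and 3 without either 30 min array, and 2 in WT without unirradiated replicate 2 or replicate 1 at 30 min. It was 1 in mig3 without either unirradiated array and 2 without replicate 2 at 30 min, and 2 in rad4 without any 1 array but replicate 1 at 30 min.

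At 60 min more members had fallen. The numbers called higher and lower were 1 and 1 in mig3 (17% of all tested probe sets called), 3 and 22 in snf1 (43.5%), 3 and 33 in rad23 (43%), 4 and 70 in snf1rad23 (52.8%), 1 and 17 in rad4 (53.8%) and 1 and 29 in WT (30.6%). Counting falls alone, 57.4% of members were called lower in snf1rad23 against 25.6% of all tested probe sets, 27.0% against 19.3% in rad23 and 23.8% against 18.5% in WT. The share was 18% against 21% in snf1, 13.9% against 26.9% in rad4 and 0.82% against 6.75% in mig3. The median member moved by -0.24 in snf1rad23, where the median of all tested probe sets was 0.02, by -0.09 in rad23 against 0.07, and by -0.18 in WT against -0.05. It was -0.15 in snf1, -0.08 in rad4 and -0.08 in mig3, against 0.00, 0.00 and 0.05 for all tested probe sets. Set beside the members were 43 mitochondrial ribosomal protein genes, only those named MRPL or MRPS and a number. In snf1 at 60 min these had 20 called higher and 1 lower, with a median of 0.33. In snf1rad23 they had 9 higher and 1 lower, with a median of 0.11. In rad23 they had 5 higher and 7 lower, in rad4 5 and 5, in mig3 0 and 4 and in WT 4 and 1. The shares of all tested probe sets above are for either direction or for falls, and the share called higher is not given here.

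The counts at 60 min leaned on single arrays. In WT, 1 member was called without replicate 2 at 60 min and 65 without replicate 1, and 11 or 7 without either unirradiated array. The 1 member kept without replicate 2 was RPS28B, so every fall called in WT at 60 min was lost without that array. In snf1 3 to 6 members were called without any 1 of its 4 arrays, in rad23 21 to 24, and in snf1rad23 47 without replicate 1 at 60 min and 54 to 65 without another array. In rad4 the count was 12 without replicate 2 at 60 min and 15 to 18 without another array, and in mig3 it was 0 without unirradiated replicate 1 and 1 without replicate 2. All members called at 60 min had irradiated arrays that did not overlap with the unirradiated ones, except RPS25B in WT and RPS10B in snf1rad23. The share without overlap among all called probe sets was not counted, so this is not known to be particular to the members. With the 2 mig3 times averaged, RPS28B was called higher and RPL22B, RPL4B and RPL27B lower, where 29.9% of all tested probe sets were called.

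**Figure D2:**
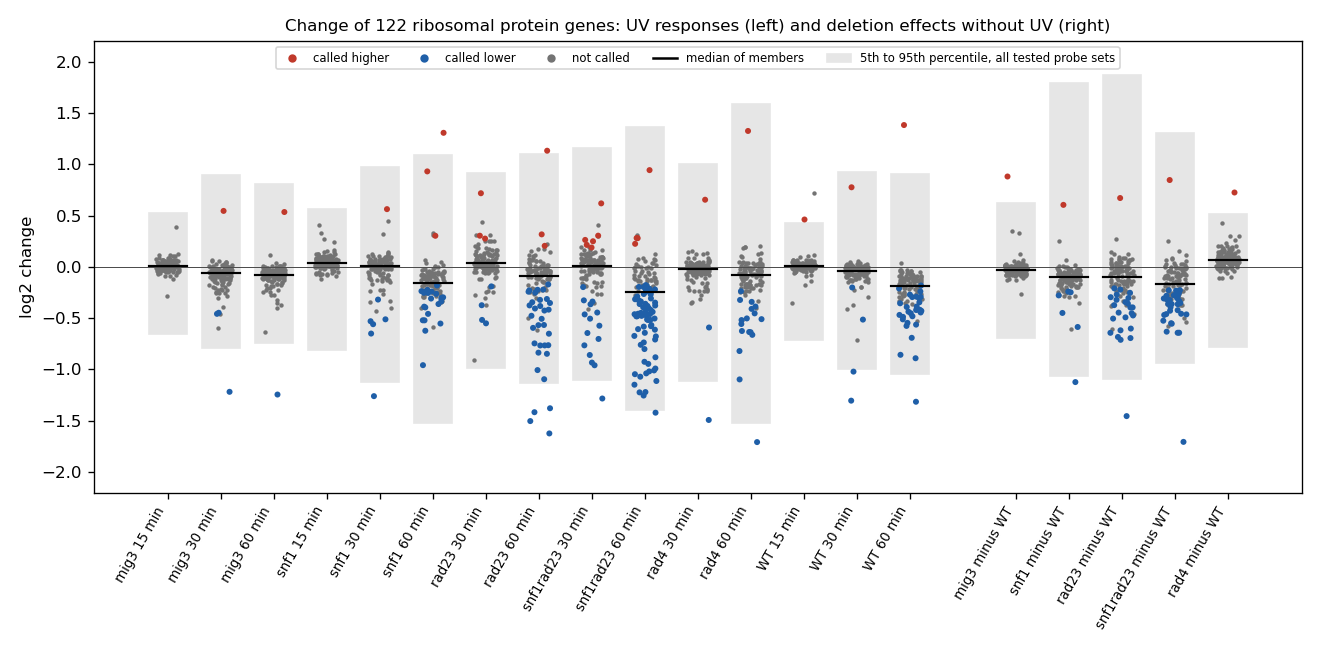
Each point is the log2 change of 1 of 122 ribosomal protein genes, in 15 UV responses (irradiated minus unirradiated, left) and 5 deletion effects (unirradiated deletion strain minus WT, right), with called genes coloured and the median as a black line. Grey boxes span the 5th to 95th percentile of all tested probe sets; most members lie well inside them, with RPS28B above 0 in every UV response from 30 min on and the most called falls in snf1rad23 at 60 min (70).

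RPS28B, 1 of a pair of genes for the small subunit protein Rps28, rose after UV in all 6 strains. In snf1 its signal was 13.05 and 13.08 unirradiated, 13.37 and 13.42 at 15 min, 13.65 and 13.60 at 30 min, and 14.002 and 13.991 at 60 min. In WT it was 12.42 and 12.50, then 12.93 and 12.92, 13.32 and 13.16, and 13.96 and 13.72 at the same times. In both strains the arrays of one time did not overlap with those of the next, and WT started lowest of all strains. In rad4, RPS28B was at 13.25 and 13.14 unirradiated, 14.03 and 13.67 at 30 min and 14.50 and 14.54 at 60 min, the highest group of all. In rad23 it was at 13.07 and 13.19, then 13.74 and 13.96, and 14.20 and 14.33, and in snf1rad23 at 13.41 and 13.21, then 13.86 and 13.99, and 14.26 and 14.24. In mig3 it was at 13.24 and 13.46 unirradiated, 13.36 at 15 min, 13.88 and 13.92 at 30 min and 14.003 and 13.770 at 60 min, where the last 2 groups overlapped.

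The rise of RPS28B at 60 min was 0.53 ± 0.12 in mig3 (limma, adjusted p = 0.00436), 0.93 ± 0.12 in snf1 (adjusted p = 1.94e-06), 1.13 ± 0.12 in rad23 (adjusted p = 2.93e-07), 0.94 ± 0.12 in snf1rad23 (adjusted p = 1.06e-06), 1.33 ± 0.12 in rad4 (adjusted p = 9.67e-09) and 1.38 ± 0.12 in WT (adjusted p = 3.37e-08). At 30 min it was 0.55 to 0.78 and called in all 6 strains. It was the single member called higher in all 6. In WT the rise was 1.263 without replicate 1 at 60 min and 1.502 without replicate 2. In mig3 the 60 min call was lost without unirradiated replicate 1 (0.42, adjusted p = 0.0719), and the rise over both later times averaged was 0.54 ± 0.10 (limma, adjusted p = 0.000637). The WT call at 15 min (0.46, adjusted p = 0.0199) was lost without any 1 of its 4 arrays (adjusted p = 0.0912 to 0.152). RPS28A was called higher in rad23 and snf1rad23, by 0.32 and 0.28 at 60 min, and each call was lost without 2 of its 4 arrays in turn.

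RPL22B, 1 of the pair for the large subunit protein Rpl22, fell by 30 min. In snf1 it was at 12.68 and 12.74 unirradiated, 12.58 and 12.60 at 15 min, 11.45 on both arrays at 30 min, and 12.004 and 12.251 at 60 min. In rad4 it was at 13.49 and 13.54 unirradiated, 12.003 and 12.047 at 30 min and 11.66 and 11.96 at 60 min. In WT it was at 13.27 and 13.36, then 13.11 and 13.24 at 15 min, 11.85 and 12.17 at 30 min, and 13.04 and 10.96 at 60 min. The 15 min arrays of snf1, WT and mig3 (13.33) lay close to their unirradiated arrays, and the 30 min arrays of all strains lay below the unirradiated ones. The 2 WT arrays at 60 min were farther apart than any other pair of RPL22B replicates, the first close to the unirradiated arrays and the second the lowest value of the series.

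At 30 min the fall of RPL22B was called in 5 of 6 strains, from -1.22 in mig3 to -1.49 ± 0.35 in rad4 (limma, adjusted p = 0.00237), and in rad23 the change was -0.91 ± 0.35 (adjusted p = 0.0553). At 60 min it was called in 5 strains, -1.71 ± 0.35 in rad4 (adjusted p = 0.000302), -1.50 ± 0.35 in rad23 (adjusted p = 0.00169), -1.25 in snf1rad23, -1.24 in mig3 and -1.31 in WT, while in snf1 it was -0.58 ± 0.35 (adjusted p = 0.189). The calls of snf1rad23, rad4 and, at 60 min, rad23 were kept without any 1 array. The WT value at 60 min was -0.28 without replicate 2 (adjusted p = 0.405) and -2.35 without replicate 1 (adjusted p = 2.65e-08). The calls at 30 min in WT, snf1 and mig3 and at 60 min in mig3 were each lost without 1 or more arrays, with adjusted p up to 0.0903 in WT, 0.0537 in snf1, 0.124 in mig3 at 30 min and 0.104 in mig3 at 60 min. Averaged over both later times the mig3 fall was -1.23 ± 0.30 (limma, adjusted p = 0.00481). RPL22A was called in snf1 at 60 min (-0.30 ± 0.10, limma, adjusted p = 0.015), a call lost without snf1 unirradiated replicate 2, and in no other UV response.

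RPS14B, the other copy with known feedback on splicing, was at 13.83 and 13.74 in unirradiated snf1rad23, 13.14 and 13.02 at 30 min and 13.07 and 13.29 at 60 min. Its falls there of 0.70 ± 0.17 and 0.61 ± 0.17 were called (limma, adjusted p = 0.00314 and 0.00595). Whether these calls hold without 1 array was not examined. In snf1 it was at 13.24 and 13.31 at 30 min, against 13.76 and 13.81 unirradiated, a call (-0.51 ± 0.17, adjusted p = 0.0293) that was lost without any 1 of the 4 arrays. RPS14A lay between 14.92 and 15.26 on all arrays and was called in no UV response. RPL30, a single-copy gene whose protein also hinders splicing of its own transcript, lay between 15.22 and 15.49 and was called in none.

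**Figure D3:**
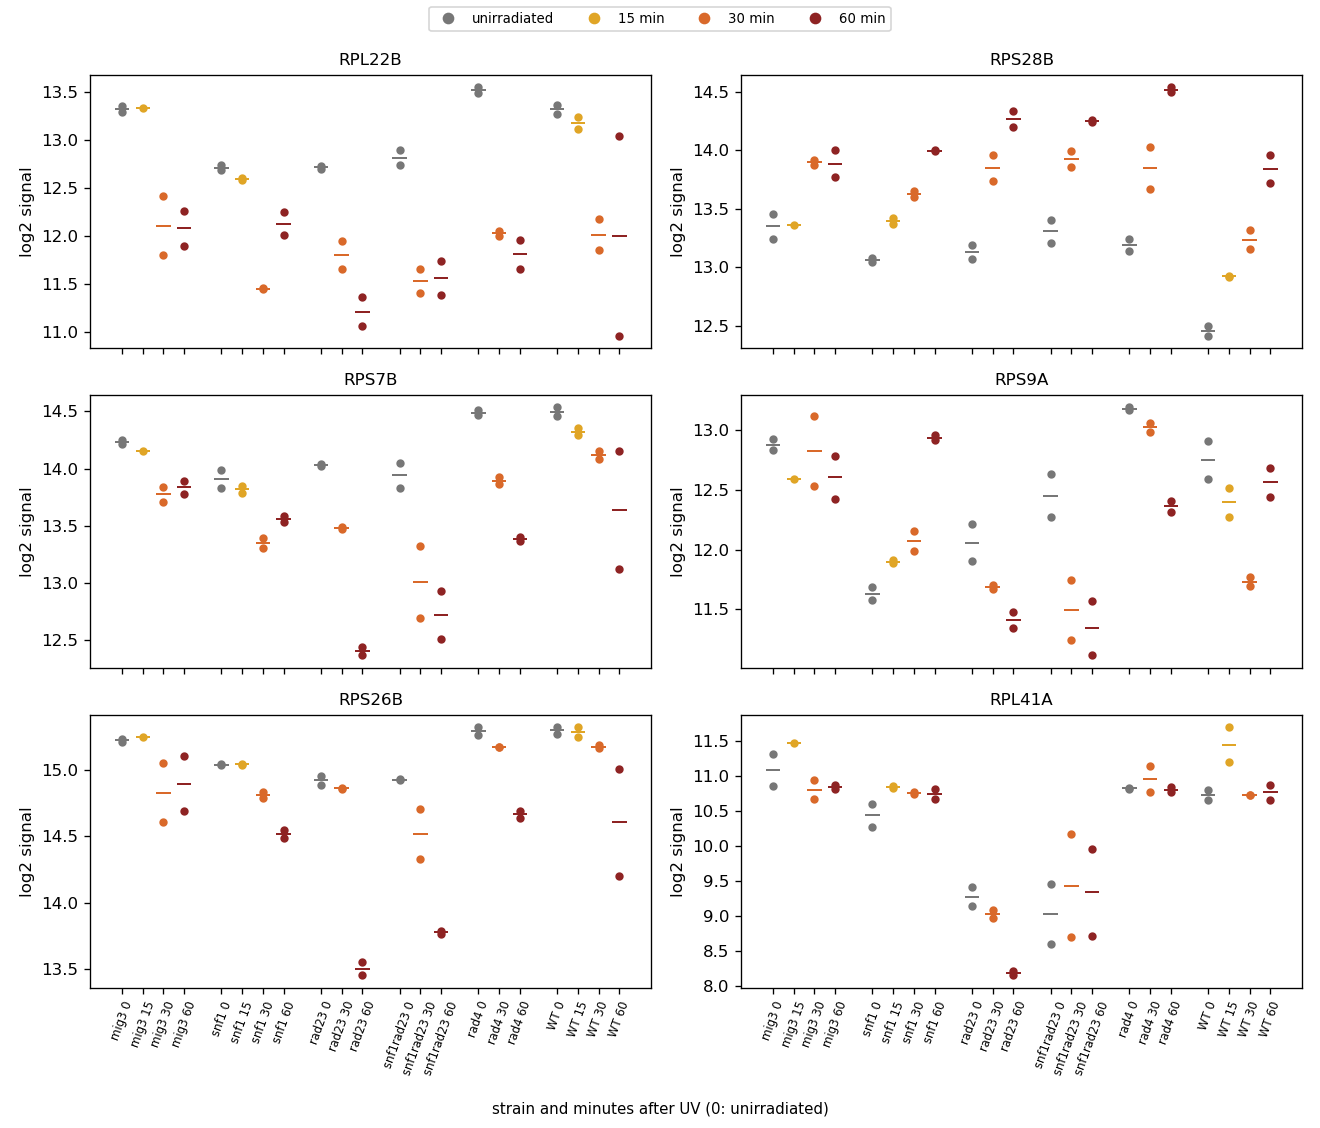
Log2 signal of 6 members on every array (points) with group means (lines), by strain and minutes after UV, where 0 is unirradiated. RPL22B falls by 30 min and RPS28B rises in every strain, RPS7B and RPS26B are lowest in rad23 and snf1rad23 at 60 min, RPS9A rises in snf1 and falls in snf1rad23, and RPL41A is low in rad23 and snf1rad23 at all times.

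The B copies RPS7B and RPS26B of the small subunit and RPL27B of the large subunit had their largest falls in rad23 and snf1rad23 at 60 min. RPS7B was at 14.04 and 14.02 in unirradiated rad23, 13.49 and 13.47 at 30 min and 12.44 and 12.37 at 60 min. RPS26B was at 14.95 and 14.89, then 14.86 on both arrays and 13.55 and 13.45 at the same times, and RPL27B at 14.28 and 14.22, 13.883 and 14.003, and 12.93 and 12.82. All 3 had their lowest rad23 arrays at 60 min, with no overlap with the earlier times.

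The rad23 changes at 60 min were -1.62 ± 0.21 for RPS7B (limma, adjusted p = 3.08e-06), -1.42 ± 0.17 for RPS26B (adjusted p = 1.72e-06) and -1.38 ± 0.16 for RPL27B (adjusted p = 7.43e-07). In snf1rad23 they were -1.22, -1.15 and -1.42, and in rad4 -1.10, -0.63 and -0.66, all called. In WT they were -0.86, -0.69 and -0.58, called with all arrays, but -0.34, -0.29 and -0.21 without replicate 2 at 60 min (adjusted p = 0.173, 0.194 and 0.309) and -1.38, -1.09 and -0.94 without replicate 1. In snf1 only RPS26B of the 3 was called, at -0.52 ± 0.17 (adjusted p = 0.0175), a call lost without any 1 of the 4 arrays. None of the 3 was called in mig3, where RPS26B was at 14.69 and 15.10 at 60 min, against 15.23 and 15.21 unirradiated.

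RPS9A, 1 of the pair for the small subunit protein Rps9, moved in opposite directions between strains. In snf1 it was at 11.68 and 11.58 unirradiated, 11.91 and 11.89 at 15 min, 12.15 and 11.99 at 30 min and 12.92 and 12.96 at 60 min. In WT it was at 12.59 and 12.91, then 12.28 and 12.52, 11.77 and 11.70, and 12.44 and 12.68. In snf1 every time point lay above the one before, and in WT the 30 min arrays were lowest and those of 60 min overlapped with the unirradiated ones.

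The snf1 change at 60 min was 1.31 ± 0.19 (limma, adjusted p = 9.2e-06), and the WT change was -1.02 ± 0.19 at 30 min (adjusted p = 0.000416) and -0.19 ± 0.19 at 60 min (adjusted p = 0.464). RPS9A fell in snf1rad23, by 0.96 at 30 min and by 1.11 ± 0.19 at 60 min (adjusted p = 4.42e-05), in rad4 by 0.82 ± 0.19 at 60 min (adjusted p = 0.00084) and in rad23 by 0.65 ± 0.19 at 60 min (adjusted p = 0.00803). The other members called higher anywhere at 60 min were RPS27A in snf1 (0.30 ± 0.09, adjusted p = 0.0122, lost without unirradiated replicate 2 or either 60 min array), RPS21A in rad23 and snf1rad23, RPS28A in the same strains, and RPL37B in snf1rad23. The RPS21A call in snf1rad23 (0.28, limma, adjusted p = 0.00149) was kept without any 1 array, while that in rad23 was lost without 2 of the 4 and that of RPL37B without any 1.

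Falls at 60 min were shared unevenly. Lower in 4 or 5 strains were 15 members, or 12.3% of 122, beside 11.6% of all tested probe sets called lower in as many strains. They were RPL22B and RPS26B in 5 strains, and RPL4B, RPL6B, RPL13A, RPL16A, RPL19B, RPL26A, RPL27B, RPL33B, RPL34A, RPL36A, RPS7B, RPS16B and RPS25B in 4. WT is among the strains counted here, and all its falls called at 60 min, that of RPL4B included, rested on replicate 2, as given above. The snf1 counts also leaned on single arrays. RPL4B, for a large subunit protein whose long loop lines the exit tunnel, also fell at 30 min in 5 strains, by 0.46 to 0.64 (the mig3 call was lost without any 1 array, and those of rad23 and WT without 2 of the 4), and at 60 min by 1.02 ± 0.13 in snf1rad23 (limma, adjusted p = 2.02e-06), by 0.76 ± 0.13 in rad23 (adjusted p = 0.000116), by 0.62 ± 0.13 in snf1 (adjusted p = 0.000716) and by 0.55 ± 0.13 in WT (adjusted p = 0.00377), while rad4 stood at -0.20 ± 0.13 (adjusted p = 0.212). RPL16A changed by -1.01 ± 0.15 in rad23 and -0.99 ± 0.15 in snf1rad23 at 60 min, and RPL9B, for a large subunit protein near the factor binding site, by -1.22 ± 0.30 in snf1rad23 and -0.96 ± 0.30 in snf1, the second call lost without any 1 array. Of all 122 members, 79 (64.8%) were called lower in at least 1 strain at 60 min and 43 in none, beside 48.5% of all tested probe sets called lower in at least 1.

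**Figure D4:**
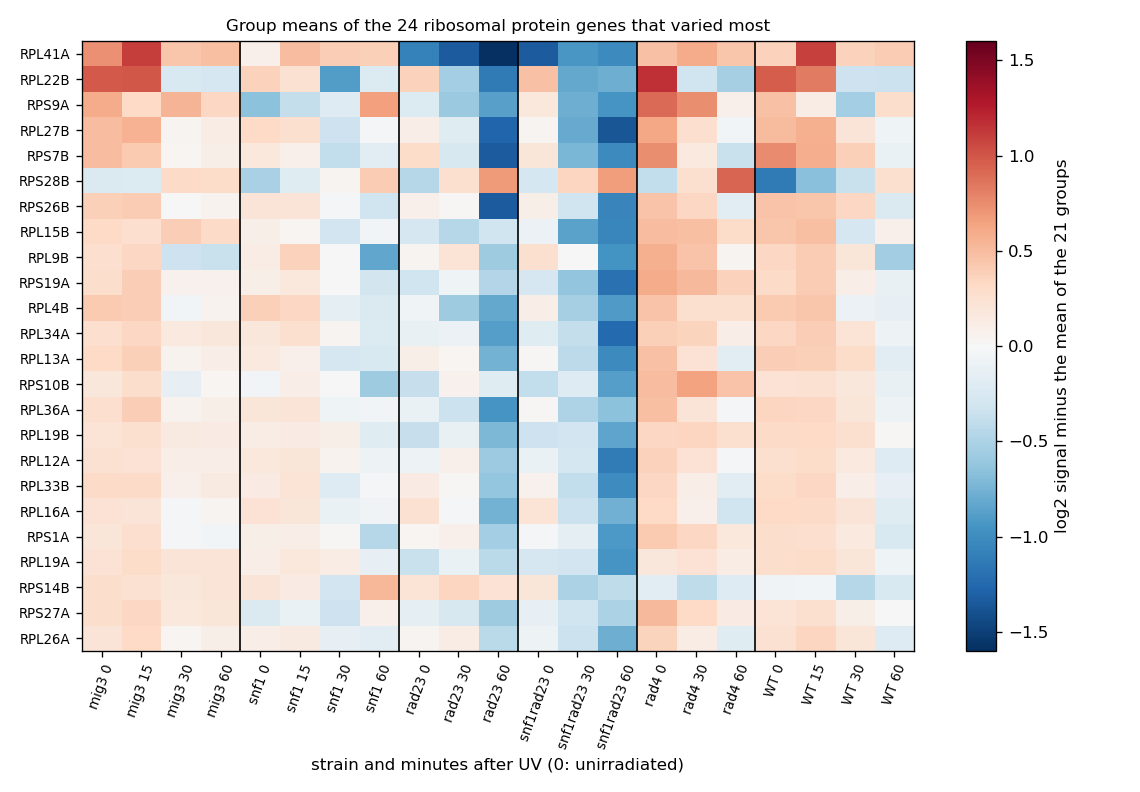
Group means of the 24 members with the largest SD of group means, each as log2 signal minus its own mean over the 21 groups, by strain and minutes after UV (0 is unirradiated). Blue at 60 min is deepest in rad23 and snf1rad23, RPS28B runs against the other rows, and the RPS9A row is red in snf1 at 60 min.

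Calls were also counted by the number of gene copies. Of the 17 members with no paralog in the gene table, 4 were called in snf1rad23 at 60 min, 2 in rad23, 1 each in rad4 and WT, and none in snf1 or mig3, where none had an unadjusted p under 0.05 in the limma fit. Of the 105 members with a paralog, 70 were called in snf1rad23, 34 in rad23, 17 in rad4, 29 in WT, 25 in snf1 and 2 in mig3. Of all tested probe sets, 52.8% were called in snf1rad23, 43% in rad23, 53.8% in rad4, 30.6% in WT, 43.5% in snf1 and 17% in mig3. In rad23, rad4, snf1 and mig3 the called shares of both kinds of member were below these. RPL3, a single-copy gene for a protein beside the peptidyl transferase centre, fell by 0.38 ± 0.09 in both rad23 (limma, adjusted p = 0.00266) and snf1rad23 (adjusted p = 0.00192) at 60 min. By subunit, 64.3% of RPL and 48.1% of RPS members were called lower in snf1rad23 at 60 min, 30.0% and 23.1% in rad23, and 28.6% and 17.3% in WT. The shares of all tested probe sets called lower were 25.6% in snf1rad23, 19.3% in rad23 and 18.5% in WT. By signal, 10 of 12 members under 14, 43 of 68 from 14 to 15 and 17 of 42 at 15 and above were called lower in snf1rad23 at 60 min, and the part of signal level in these splits was not tested.

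The ubiquitin fusion genes make ribosomal proteins joined to a ubiquitin that is cut off after translation. RPS31 lay between 15.16 and 15.45 on all arrays and RPL40A between 14.78 and 15.12, and neither was called in any UV response or deletion effect. RPL40B was at 13.49 and 14.06 in snf1rad23 at 60 min, against 14.14 and 14.33 unirradiated, and at 14.38 and 14.13 in WT at 60 min, against 14.67 and 14.73 unirradiated. Its changes of -0.46 ± 0.14 in snf1rad23 (limma, adjusted p = 0.00984) and -0.44 ± 0.14 in WT (adjusted p = 0.0211) were called, with no overlap of irradiated and unirradiated arrays. Both rest on single arrays. The snf1rad23 change was -0.17 without replicate 1 at 60 min and -0.74 without replicate 2, and the WT change was -0.32 without replicate 2 at 60 min. Neither fall was called without the array in question, replicate 1 in snf1rad23 and replicate 2 in WT. Without UV, RPL40B was also called lower than in WT in rad23 and in snf1rad23, the 1 fusion gene of 3 called there. How these calls fare without 1 array is not given here.

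Without UV, RPS28B was the single member called higher in each deletion strain than in WT. It stood at 13.24 and 13.46 in mig3, 13.05 and 13.08 in snf1, 13.07 and 13.19 in rad23, 13.41 and 13.21 in snf1rad23 and 13.25 and 13.14 in rad4, against 12.42 and 12.50 in WT. The differences were 0.60 to 0.89 (limma, adjusted p from 8.36e-06 to 0.000275), and all 5 calls were kept without any 1 array. The 5 comparisons share the same 2 WT arrays, so they are not independent. In mig3 and rad4 no other member was called (8.31% and 6.75% of all tested probe sets), and the median member moved by -0.03 and 0.07, against -0.07 and 0.06 for all tested probe sets.

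In snf1, 6 members were lower than in WT (23.6% of all tested probe sets lower, 45.3% called in either direction). RPS9A was at 11.68 and 11.58 in snf1, against 12.59 and 12.91 in WT, a difference of -1.12 ± 0.19 (limma, adjusted p = 4.2e-05). RPS27A was at 13.99 and 13.97 in snf1, against 14.43 on both WT arrays (-0.45 ± 0.09, adjusted p = 0.000451). The arrays did not overlap for either gene and both calls were kept without any 1 array. The calls of RPS7B (-0.59), RPL22A (-0.28) and RPS9B (-0.25) were lost without 2 to 4 of the arrays, and the count of members called fell to 3 or 4 without any 1 of them.

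In rad23 24 members were lower than in WT (25.4% of all tested probe sets lower, 47.6% called in either direction), and in snf1rad23 30 (21.4% and 38.6%). RPL41A, for the smallest ribosomal protein, was at 9.42 and 9.14 in rad23 and 9.46 and 8.60 in snf1rad23, against 10.67 and 10.80 in WT. Its differences of -1.45 ± 0.35 in rad23 (limma, adjusted p = 0.0016) and -1.71 ± 0.35 in snf1rad23 (adjusted p = 0.000564) were the lowest of any member, and it stayed between 8.15 and 10.17 on all 12 arrays of these strains, against 10.28 to 11.70 elsewhere.

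Other members lower in both strains included RPL19A (-0.64 in rad23 and -0.55 in snf1rad23), RPL19B (-0.68 and -0.64) and RPL39, for a small protein of the exit tunnel (-0.50 and -0.64). Without any 1 array the RPL19B and RPL41A calls were kept in both strains, the RPL19A call in rad23 and the RPL39 call in snf1rad23. These are the strains in which the 3′ minus 5′ difference of SPT15, though not those of ACT1 and SRB4, was highest, and the part of RNA quality in the member differences was not tested. The counts were 7 without rad23 replicate 2 and 11 without WT replicate 2 in rad23, and 11 without snf1rad23 replicate 1 or WT replicate 2 in snf1rad23.

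Whether a deletion altered the UV response was tested as the deletion strain's response minus that of WT. At 15 min no member was called in mig3 (0.0186% of all tested probe sets called) or snf1 (1.86%), and at 30 min none in mig3 (0.948%), rad23 (3.36%), snf1rad23 (3.16%) or rad4 (0.818%). At an unadjusted p under 0.05 the limma fit held 1, 1, 1, 5, 4 and 1 members in these comparisons, and without mig3 replicate 1 at 30 min 2 members were called in mig3 at that time. In snf1 at 30 min 1 member was called (4.07% of all tested probe sets). This was RPS9A, whose response exceeded that of WT by 1.46 ± 0.27 (limma, adjusted p = 0.00198).

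At 60 min 2 members were called in snf1 (21.1% of all tested probe sets), 2 in rad23 (14.2%), 5 in snf1rad23 (19.7%), 1 in rad4 (17.6%) and 1 in mig3 (0.836%). In snf1 these were RPS9A, at 1.496 ± 0.27 (limma, adjusted p = 0.000474), and RPS27A, at 0.52 ± 0.13 (adjusted p = 0.00766). Both kept their calls without any 1 array, and in both the unirradiated snf1 level lay below that of WT. At 60 min RPS9A stood at 12.92 and 12.96 in snf1, against 12.44 and 12.68 in WT. The calls of the other strains rest on the WT arrays of 60 min, which stand apart from each other. Without WT replicate 1 at 60 min the members called numbered 19 in mig3, 19 in snf1, 7 in rad23, 5 in snf1rad23 and 10 in rad4, and without replicate 2 they numbered 2, 4, 17, 33 and 7. Other single arrays also ended counts: mig3 had none without WT unirradiated replicate 1, mig3 unirradiated replicate 2 or mig3 replicate 2 at 60 min, rad23 had none without WT unirradiated replicate 1 or rad23 replicate 2 at 60 min, and rad4 had none without WT unirradiated replicate 2, rad4 unirradiated replicate 1 or rad4 replicate 1 at 60 min. In snf1rad23 the count was 1 without WT unirradiated replicate 1, 3 without snf1rad23 unirradiated replicate 2 or replicate 1 at 60 min and 11 without replicate 2 at 60 min.

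The A and B copies of a pair could be set side by side for 47 pairs in which each copy had its own probe set. The change of A minus that of B was fitted with limma on the difference within each array, over all 51 gene pairs of the array whose symbols end in A and B, and adjusted over them. Of the 47 ribosomal pairs, those called at 60 min numbered 1 in mig3, 4 in snf1, 34 in rad23, 35 in snf1rad23, 22 in rad4 and 13 in WT. Over all 51 fitted pairs, the other 4 included, the called share was 1.96% in mig3, 7.84% in snf1, 68.6% in rad23, 70.6% in snf1rad23, 43.1% in rad4 and 25.5% in WT. Since 47 of the 51 pairs are ribosomal, this share is no background for them. In 14 of the 94 genes of these pairs the fit used another probe set than the member's own, because it took only probe sets without a suffix for shared probes. Among the 14 were RPL2A, RPL8A, RPL11B, RPL14B, RPL21A, RPS10A, RPS18B, RPS19B, RPS23A, RPS26A, RPS29A and RPS29B. Adjusted together with all 5380 probe sets, the counts were 2, 10, 30, 34, 23 and 14. At 30 min the ribosomal pairs called were 1 in mig3, 10 in snf1, 4 in rad23, 24 in snf1rad23, 4 in rad4 and 3 in WT, and the called shares of all 51 pairs were, in the same order, 1.96%, 19.6%, 7.84%, 52.9%, 11.8% and 5.88%. At 15 min no pair was called, and at an unadjusted p under 0.05 the limma fit held 0 in mig3 and 1 each in snf1 and WT. Without UV, ribosomal pairs called against WT numbered 1 in mig3, 3 in snf1, 6 in rad23, 3 in snf1rad23 and 1 in rad4, and the called shares of all 51 pairs were 1.96%, 7.84%, 11.8%, 5.88% and 1.96%.

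Neither letter marked the copy that fell. Among the pairs called at 60 min, A changed above B in 18 and B above A in 16 in rad23, in 20 and 15 in snf1rad23, in 11 and 11 in rad4 and in 7 and 6 in WT. The B copy was the lower one in RPL22, RPS7, RPS26, RPL27, RPL33 and RPS18, and the A copy in RPL13, RPL16, RPL36, RPL8 and RPS23. Of the 47 pairs, 42 were called in at least 1 strain at 60 min and 10 in 4 or more of the 6 (RPL8, RPL13, RPL16, RPL22, RPL36, RPS9, RPS18, RPS23, RPS26 and RPS28). Directions differed between strains in 4 pairs, RPL19, RPL20, RPS9 and RPS27. In every other called pair the direction was one in all strains that called it, with A above B in, among others, RPL6, RPL9, RPL11, RPL22, RPL23, RPL24, RPL27, RPL31, RPL33, RPL40, RPL43, RPS0, RPS7, RPS14, RPS16, RPS18, RPS21, RPS24, RPS25 and RPS26. B was above A in, among others, RPL2, RPL8, RPL12, RPL13, RPL16, RPL21, RPL26, RPL34, RPL36, RPL37, RPS1, RPS10, RPS19, RPS22, RPS23 and RPS28. Another 5 pairs, among them RPL14, RPL15, RPL17 and RPS29, were called in no strain.

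RPS28 was the 1 pair called in all 6 strains. A minus B was -0.50 ± 0.13 in mig3 (95% interval -0.76 to -0.24), -0.89 ± 0.13 in snf1, -0.82 ± 0.13 in rad23, -0.66 ± 0.13 in snf1rad23, -1.14 ± 0.13 in rad4 and -1.43 ± 0.13 in WT (interval -1.69 to -1.17). For RPL16 the A copy changed by -1.01 and the B copy by -0.03 in rad23, a difference of -0.97 ± 0.13 (interval -1.23 to -0.71), and the WT difference was -0.39 ± 0.13. For RPL36 the difference was -0.89 ± 0.10 in rad23, -0.74 ± 0.10 in snf1rad23, -0.59 ± 0.10 in rad4 and -0.34 ± 0.10 in WT, with B between -0.08 and 0.08 in these 4 strains.

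Of the B copies that fell, RPS26B set RPS26 apart by 1.37 ± 0.12 in rad23 (interval 1.11 to 1.62), 0.98 ± 0.12 in snf1rad23, 0.60 ± 0.12 in rad4 and 0.50 ± 0.12 in WT, and RPS7B set RPS7 apart by 1.38 ± 0.18 in rad23 (interval 1.01 to 1.76). In the RPS9 pair, A minus B was 1.37 ± 0.21 in snf1 (interval 0.93 to 1.80), and -1.08 ± 0.21 in snf1rad23, -0.85 ± 0.21 in rad4 and -0.70 ± 0.21 in rad23. In WT it was -0.05, with an interval from -0.48 to 0.38.

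Signal level was set beside the split. The copy with the lower change was also the one with the lower mean signal in 23 of 34 called pairs in rad23, 25 of 35 in snf1rad23, 13 of 22 in rad4, 7 of 13 in WT, 0 of 4 in snf1 and 0 of 1 in mig3. Signal of different probe sets is not transcript amount, and the part of signal level was not tested. Probes of near-identical copies can also bind both transcripts, which was not tested. In WT 1 pair was called without replicate 2 at 60 min or without either unirradiated array, and 29 without replicate 1. In snf1 at 30 min 0 to 2 pairs were called without any 1 array, in rad23 at 60 min 26 to 30, in snf1rad23 at 60 min 28 to 36 and in rad4 at 60 min 16 to 19. In snf1rad23 at 30 min the count was 7 without replicate 2 at 30 min.

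**Figure D5:**
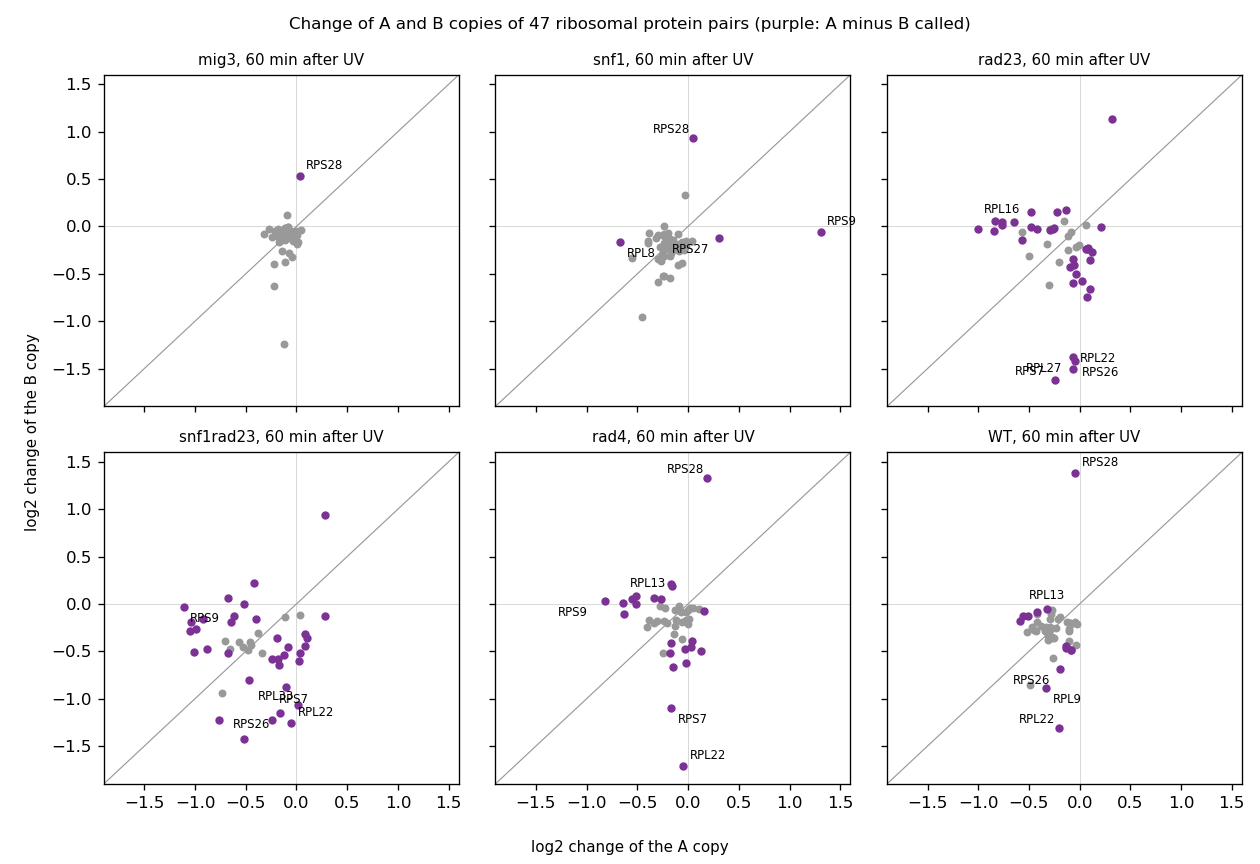
Log2 change at 60 min after UV of the A copy (x axis) against the B copy (y axis) for 47 pairs in each strain, with the diagonal of equal change and called pairs in purple, the 5 largest named. In rad23, snf1rad23 and rad4 the pairs spread along both axes, with RPL22, RPS7 and RPS26 low on the B axis, while mig3 has 1 called pair, RPS28.

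Genes around the ribosomal proteins behaved in different ways. The 5 genes of the stalk, RPP0, RPP1A, RPP1B, RPP2A and RPP2B, recruit elongation factors to the large subunit and lay between 14.50 and 15.37 on all arrays. None was called in any of the 15 UV responses or 5 deletion effects, and at 60 min 1 of 5 had an unadjusted p under 0.05 in the limma fit in snf1, snf1rad23 and WT, and 0 of 5 in mig3, rad23 and rad4. Of 10 tested regulators of ribosomal protein genes, 0 were called higher and 4 lower in mig3 at 60 min, 3 and 3 in snf1, 0 and 6 in rad23, 0 and 7 in snf1rad23, 1 and 7 in rad4 and 0 and 8 in WT. Beside them, 6.75% of all tested probe sets were called lower in mig3, 21% in snf1, 19.3% in rad23, 25.6% in snf1rad23, 26.9% in rad4 and 18.5% in WT. The calls kept without any 1 array numbered 2 of 4 in mig3, 4 of 6 in snf1, 2 of 6 in rad23, 6 of 7 in snf1rad23, 7 of 8 in rad4 and 2 of 8 in WT, where DOT6 and HMO1 kept theirs. CRF1 was too dim to be tested.

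IFH1, the coactivator at these promoters, was at 8.067 and 7.495 in rad4 at 60 min, against 10.22 and 10.14 unirradiated, and changed by -2.40, beside -2.25 in snf1rad23, -1.22 in mig3, -1.15 in rad23, -0.71 in WT and 0.10 in snf1. In WT it was at 10.10 and 9.48 at 60 min, against 10.35 and 10.64 unirradiated, and the change was -0.39 without replicate 2 at 60 min (limma, adjusted p = 0.414). FHL1, the factor that recruits Ifh1, changed by -2.48 in rad4 and -1.91 in snf1rad23, the second -1.24 without replicate 2 at 60 min. HMO1, a high mobility group protein at many of these promoters, was at 10.58 and 10.83 in rad23 at 60 min, against 12.30 and 12.18 unirradiated, and its fall was called in every strain but rad4 (-0.37). RAP1 fell in 5 strains and rose in snf1 by 0.61, and those calls were lost in snf1, rad23 and WT without 1 or 2 of the 4 arrays in turn. ABF1, a general regulatory factor, changed by -0.98 in snf1rad23 and -1.44 in rad4 and rose by 0.90 in snf1. In WT it was at 9.87 and 11.13 at 60 min, against 11.39 and 11.48 unirradiated, a change of -0.94 that was -0.31 without replicate 1 at 60 min (limma, adjusted p = 0.121) and -1.56 without replicate 2. Both genes were lower without UV than in WT in snf1 (-1.66 for RAP1 and -1.74 for ABF1), rad23 (-0.96 and -2.14) and snf1rad23 (-0.51 and -1.40), where the RAP1 difference was -0.29 without snf1rad23 replicate 2 (adjusted p = 0.26).

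SFP1, an activator, was called lower in all strains but rad23, with calls kept without any 1 array in snf1, snf1rad23 and rad4. DOT6, a repressor of ribosome genes, was called lower in all but mig3, with calls kept in snf1 and WT. TOD6, its relative, was called lower in rad23, rad4 and WT, with the call kept in rad4. STB3, a binding factor of ribosome biogenesis promoters, was called higher in rad4 (1.06), and SCH9, a TORC1 target kinase, in snf1 (0.63, lost without 2 of the 4 arrays in turn). Set against the WT response at 60 min, 0 of the 10 regulators were called higher and 0 lower in mig3, and 3 and 0 in snf1. The counts were 1 and 0 in rad23, 0 and 1 in snf1rad23 and 1 and 3 in rad4. Of all tested probe sets, 0.836% were called in mig3, 21.1% in snf1, 14.2% in rad23, 19.7% in snf1rad23 and 17.6% in rad4. These counts rest on the WT arrays of 60 min, which stand apart from each other. Deletion strains were not tested against each other.

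Of 8 tested translation elongation factors, 0 were called higher and 0 lower in mig3 at 60 min, 2 and 0 in snf1, 1 and 1 in rad23, 2 and 2 in snf1rad23, 1 and 2 in rad4 and 0 and 2 in WT. TEF2, which shares probes with its twin TEF1, lay between 15.22 and 15.39 on all arrays, and TEF4 and CAM1 were called in no strain at 60 min. YEF3, for elongation factor 3, was called lower in rad23, snf1rad23, rad4 and WT by 0.23 to 0.39, and the calls were kept without any 1 array in snf1rad23 and rad4. EFT2, called lower in the last 3 by 0.18 or 0.19, kept none of its calls in the same way. EFB1 was called higher in snf1 and snf1rad23 (0.18 and 0.28) and HYP2 in snf1 (0.20), and both snf1 calls were lost without any 1 of the 4 arrays. ANB1, the oxygen-repressed twin of HYP2, rose by 2.45 in rad23, 1.32 in snf1rad23 (0.79 to 1.85 without 1 array) and 1.35 in rad4. Of 13 chaperones and ribosome-associated proteins (among them SSB1, SSB2, ZUO1 and SSZ1 at the exit tunnel), 6 were called higher and 0 lower in snf1 at 60 min, 2 and 4 in rad23, 1 and 2 in snf1rad23, 0 and 3 in rad4, 0 and 2 in WT and 0 and 0 in mig3. Beside them, the called share of all tested probe sets in either direction was 43.5% in snf1, 43% in rad23, 52.8% in snf1rad23, 53.8% in rad4, 30.6% in WT and 17% in mig3. Most of the 60 min calls of the 13 were lost without an array. Those kept without any 1 array numbered 2 of 6 in snf1, 2 of 6 in rad23, 0 of 3 in snf1rad23, 1 of 3 in rad4 and 0 of 2 in WT. Without UV, none of the 13 was called higher than in WT in any deletion strain, while 8 were called lower in snf1, 9 in rad23 and 7 in snf1rad23, where 23.6%, 25.4% and 21.4% of all tested probe sets were called lower. Of these calls, 4 in snf1, 4 in rad23 and 3 in snf1rad23 were kept without any 1 array.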

How the data were processed

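Labels give 41 one-colour Affymetrix arrays of total RNA, in 21 strain and time groups. The values are the authors' deposited log2 signal, made with GCRMA 2.10.0 in R 2.6.2 per the submitters' processing notes. GCRMA as a method corrects background by probe sequence, quantile normalizes arrays and summarises the probes of a set. The table held 10928 probe sets, of which 5498 matched a budding yeast gene and 5380 reached 4 on at least 2 arrays. Array precision is limited by the number of arrays.

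Members and lists were chosen with earlier results of these data known. limma 3.58.1 in R 4.3.3 fitted 1 mean per group (20 residual degrees of freedom), with UV responses, deletion effects and differences of responses as contrasts and Benjamini-Hochberg adjustment over all tested probe sets. A second limma fit used within-array A minus B differences. Named genes were up to 5 called rises and falls per comparison, the 6 most and 4 least variable members, the pairs, the ubiquitin fusions and the fixed lists; RPS14B, RPL30 and RPL22A were added with their values seen. On simulated data for WT at 60 min the test recovered 29.9% of changes of 0.5 and 80.3% of changes of 1 over 5380 probe sets, and 71.3% of falls of 0.5 given to the 122 members. The simulated noise had 1 SD per probe set, pooled over all groups. The actual WT arrays at 60 min differed more than any other replicate pair (SD of the difference over all tested probe sets, 0.75), so these rates do not describe them. Alternatives covered normalization, the filter, priors, array weights, a replicate block, the probe set per gene and each array left out. Sequences and promoter motifs were not used here, and some members are not reported by name.

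Replicate numbers were not taken as pairs: over 190 pairs of groups, the differences of replicate 1 minus 2 correlated with a median of 0.03, from -0.36 to 0.71.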

Additional observations from a re-analysis of the deposited data

Results flagged for a closer look

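Responses to UV that differed between a deletion strain and WT, by the limma test of the difference itself, were found for 9 members. In snf1, RPS9A exceeded the WT response by 1.46 at 30 min (adjusted p = 0.00198) and by 1.5 at 60 min (adjusted p = 0.000474), and RPS27A by 0.52 at 60 min (adjusted p = 0.00766). All 3 differences kept their calls without any 1 array. RPS9A and RPS27A also began lower in unirradiated snf1 than in unirradiated WT, by 1.12 and 0.45, and the part of that difference was not tested.

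In mig3 the response of RPS28B at 60 min lay below that of WT (-0.848, adjusted p = 0.013), a call lost without 3 of 8 arrays in turn. Its unirradiated level was 0.89 higher in mig3 than in WT.

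In rad23 the responses of RPL27B (-0.803, adjusted p = 0.0179) and RPS26B (-0.725, adjusted p = 0.0475) at 60 min lay below those of WT, and were lost without 4 and 7 of 8 arrays in turn. In snf1rad23 the same held of RPL24A (-0.475, adjusted p = 0.00621), RPL27B (-0.846, adjusted p = 0.0105), RPL34A (-0.627, adjusted p = 0.0362) and RPS9A (-0.923, adjusted p = 0.0183), while RPS21A lay above WT (0.323, adjusted p = 0.0206). The RPL24A call was kept without any 1 array, and the others were lost without 2 to 6 of 8. In rad4 RPS22B lay above WT (0.429, adjusted p = 0.014) and was lost without 3 of 8 arrays. All the 60 min values rest on the 2 WT arrays of that time, which differed more than 2-fold at 780 tested probe sets.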

How the results depend on the processing

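With 2 arrays per group, small changes can go unseen: in data simulated for WT at 60 min with noise pooled over all groups, 5.97% of changes of 0.25 were recovered. Counts are of members called unless pairs are named. Quantile normalization gave 16 in WT at 60 min and 9 for the snf1rad23 difference at 60 min, and 0 pairs in mig3 at 30 and 60 min and 2 for rad4 against WT. Median centring gave 14 in WT at 60 min, 17 for snf1rad23 against WT and 1 for the rad23 difference at 60 min. Neither moved the median of all tested probe sets by more than 0.11. An intensity trend with a robust prior gave 56 in WT at 60 min, 12 in snf1, 15 in rad23 and 8 in rad4 at 30 min, 30 in rad4 at 60 min, 12 for snf1 and 4 for rad4 against WT, and 7, 11 and 4 for the rad23, snf1rad23 and rad4 differences at 60 min.

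Array weights gave 10 and 2 in WT at 30 and 60 min, 2 and 1 in mig3, 18, 32 and 80 in snf1 at 15, 30 and 60 min, 22 in rad23 and 12 in rad4 at 30 min, 52 in rad4 at 60 min, 30, 41 and 8 for snf1, rad23 and rad4 against WT, differences of 1 and 3 for snf1 at 15 and 30 min, 5 for rad23 and 1 for rad4 at 30 min, and 0 for mig3, rad23, snf1rad23 and rad4 at 60 min. Their pair counts were 1, 12 and 1 in WT at 15, 30 and 60 min, 4 and 6 in mig3 at 30 and 60 min, 4, 32 and 26 in snf1, 10 in rad23 and 17 in rad4 at 30 min, and 2, 15, 16, 17 and 11 for mig3, snf1, rad23, snf1rad23 and rad4 against WT.

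Fitted on only the arrays of the contrast, the counts were 0 in WT at 15 and 60 min and in mig3 at 30 and 60 min, 3, 17 and 43 in snf1 at 15, 30 and 60 min, 5 and 19 in snf1rad23 at 30 and 60 min, 0, 11 and 7 for mig3, snf1 and snf1rad23 against WT, and 0 for the mig3, rad23, snf1rad23 and rad4 differences and 1 for the snf1 difference at 60 min. Pairs were 1, 14 and 1 in WT, 0 and 0 in mig3 at 30 and 60 min, 19, 37 and 21 in snf1, 0, 11 and 10 in rad23, snf1rad23 and rad4 at 30 min, and 3, 17, 9 and 3 for mig3, snf1, snf1rad23 and rad4 against WT. Adjusted with all probe sets, pairs were 1 in WT at 15 min, 2 and 2 in mig3 at 30 and 60 min, 10 in snf1 at 60 min, and 6, 7 and 2 for snf1, snf1rad23 and rad4 against WT. The mig3 times averaged, as chosen after seeing the data, gave 4. With the replicate number as a block, which the arrays do not bear out as a pairing, 2 pairs were called for rad4 against WT and no other count moved by over 1.5 times. RPL8A in snf1rad23 at 30 min turned to -0.18 (adjusted p = 0.418) with its plain probe set.

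Without 1 array, counts ran from 0 to 0 in WT at 15 min, 2 to 5 at 30 min and 1 to 65 at 60 min, 1 to 6 and 0 to 2 in mig3 at 30 and 60 min, 3 to 4 and 3 to 6 in snf1, 2 to 8 and 21 to 24 in rad23, 8 to 20 and 47 to 65 in snf1rad23, and 2 to 4 and 12 to 18 in rad4. Against WT they were 1 in mig3 and rad4, 3 to 4 in snf1, 7 to 27 in rad23 and 11 to 24 in snf1rad23. For differences they were 0 to 2 and 0 to 19 in mig3, 1 to 1 and 2 to 19 in snf1, 0 and 0 to 17 in rad23, 0 and 1 to 33 in snf1rad23, and 0 and 0 to 10 in rad4. Pairs ran from 1 to 2 and 1 to 29 in WT, 0 to 1 in mig3, 0 to 2 and 4 to 4 in snf1, 0 to 2 and 26 to 30 in rad23, 7 to 21 and 28 to 36 in snf1rad23, and 1 to 3 and 16 to 19 in rad4, and against WT 1 in mig3, 1 to 3 in snf1, 2 to 8 in rad23, 1 to 5 in snf1rad23 and 0 to 1 in rad4. Of 107 named calls, 52 were kept without every array in turn. The cause of these moves was not tested.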
